A study of Mus musculus with 4 samples.

Results

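A set of 8 genes of blood coagulation and its restraint was followed in macrophages sorted from glioblastoma xenografts in mice: F3, F5, F7, F10, F13a1, Tfpi, Thbd and Procr. They were chosen by name, with the results of the drug comparison already known, and make up 8 of the 54532 genes in the deposited table. Because of that choice, their values under the drug are given as a description and carry no test. All 8 passed the filter on low counts.

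The cells were isolated by flow cytometry as CD45+, Gr1-, CD11b+ and DAPI-, so live myeloid cells were kept and cells bearing Gr1, which marks neutrophils and part of the monocytes, were gated out. The samples form 2 groups of 2 libraries: controls, and cells from treatment with MK-8931 (verubecestat), which blocks BACE1, a beta-secretase that cuts the amyloid precursor protein. The labels call the strain only "GBM mice" and the source xenografts, and the genotype, age and sex of the hosts and the identity of the grafted line were not given in the sources used here. The protocols describe 3 days of drug or vehicle applied to glioma stem cells and RNA from those cells, whereas the cell type entries name sorted macrophages, so how the drug reached the macrophages is not settled. The labels do not tie the libraries to separate animals, so the spread between libraries may be technical.

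Coagulation begins when tissue factor, the membrane protein encoded by F3, binds factor VII and the complex activates factor X. Factor Xa with its cofactor factor V turns prothrombin into thrombin, thrombin makes fibrin, and factor XIII cross-links it. Tissue factor pathway inhibitor (Tfpi) blocks the opening step, while thrombomodulin (Thbd) and the endothelial protein C receptor (Procr) turn thrombin toward activating protein C, which destroys factor V. The liver makes most circulating factors, but monocytes and macrophages are known to make tissue factor, factor XIII A and several others, and glioblastoma is a tumour known for thrombosis.

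In the MK-8931 libraries the genes of this set that act in the opening and amplifying steps stood higher. The mean CPM (the count scaled to library size) of F10 was 3.29-fold, of F7 3.04-fold, of F5 2.79-fold and of F3 1.75-fold that of the controls. F13a1, by far the most abundant of the set, stood at 1.23-fold of the control mean. The restraining genes went different ways, with Thbd at 1.76-fold, Tfpi at 0.612-fold and Procr at 0.935-fold of the control mean.

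Library totals lay between 18257930 and 20179875 counts. Levels are given as CPM, adjusted between libraries by TMM, which compares 1 gene across libraries, and as FPKM, which also divides by gene length and allows genes to be compared with each other. Of 13932 genes tested with edgeR's quasi-likelihood test, 0.998% were called at an adjusted p under 0.05 (0.861% higher with MK-8931 and 0.136% lower). Among the 8 genes that fit called 2, F7 and F10, both higher, a count that carries no weight since the genes were picked with these results known. Both drug libraries lay above both controls for 6 of the 8 genes and below them for 1, so 7 of 8 had groups apart. Over all tested genes these shares were 21.2%, 20% and 41.2%. The median log2 fold change of the 8 was 0.82, against −0.00297 over all genes tested.

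In these macrophages the 8 genes covered a wide range of levels per gene length. F13a1 stood far above the rest, at 168 and 167 FPKM in controls, against 206 and 202 FPKM under MK-8931. By mean FPKM over the 4 libraries the order was F13a1 (186), F10 (24.1), F7 (17.4), Thbd (9.06), F3 (4.61), Procr (2.50), Tfpi (2.32) and F5 (0.506). F10 lay above F7 in every library, whereas neighbours such as Procr and Tfpi overlapped in FPKM, from 2.03 to 2.98 for Procr and from 1.64 to 3.23 for Tfpi. Between Thbd and F3 the ranges did not overlap in either group, yet Thbd in control 2 (5.23 FPKM) lay below F3 with the drug (5.85 and 5.87 FPKM). By mean CPM, F13a1 ranked 79th among all tested genes, F10 3240th and F5 10388th.

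**Figure D1:**
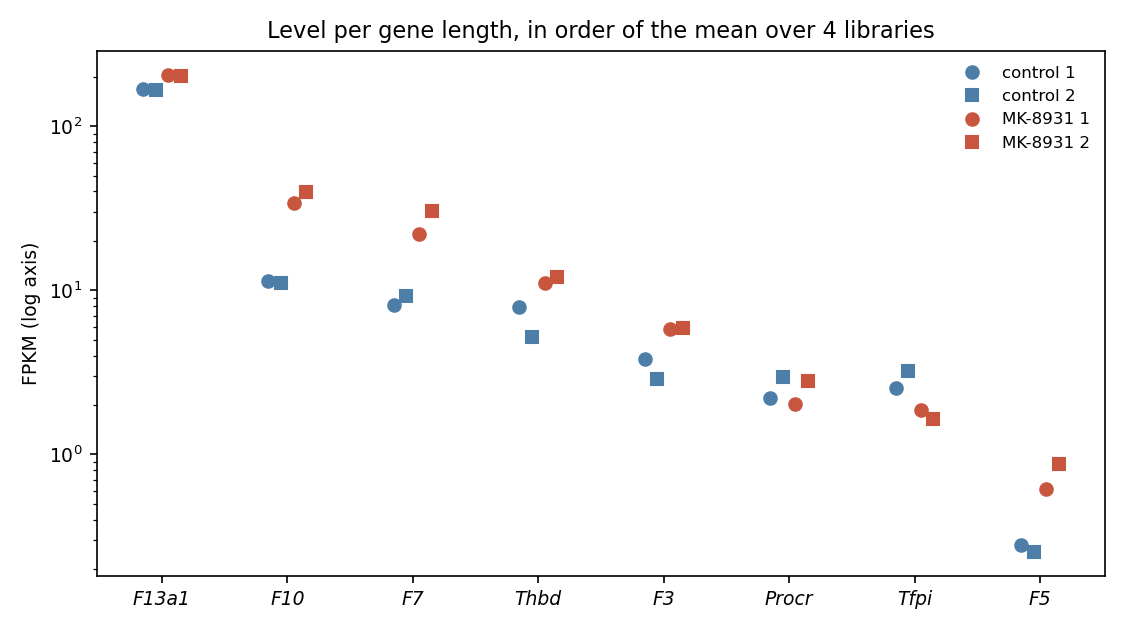
FPKM of the 8 genes (log axis) in the 2 control libraries (blue) and 2 MK-8931 libraries (red), ordered by the mean over the 4 libraries. F13a1 sits at 167 to 206 FPKM, and F5 lies below 1 FPKM in every library.

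F3, which encodes tissue factor, lies on chromosome 3 from 121723537 to 121735048 (ENSMUSG00000028128, GRCm38, plus strand). It measured 9.75 and 7.26 CPM in controls, against 14.9 and 15.0 CPM in the MK-8931 libraries. Both drug libraries were higher than both controls, and the drug libraries differed by less (1.01-fold) than the controls did (1.34-fold). The fitted log2 fold change was 0.81 (SE 0.23), and it depended on the control kept, at 1.03 without control 1 and 0.61 without control 2.

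F7, which encodes the protease that tissue factor activates, lies on chromosome 8 from 13026034 to 13035809 (ENSMUSG00000031443, plus strand). Its levels were 15.2 and 17.0 CPM in controls, against 41.4 and 56.8 CPM under MK-8931. The groups were well apart, although the second drug library was 1.37-fold above the first. The group means were 16.1 ± 1.26 and 49.1 ± 10.9 CPM (SD, n = 2), and the fitted log2 fold change was 1.60 (SE 0.20). As a partner of F3, F7 stood at 2.13 and 3.19 times the FPKM of F3 in the controls and at 3.78 and 5.16 times with the drug.

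F10 encodes factor X, where the opening and amplifying arms of the cascade meet. It lies on chromosome 8 from 13037308 to 13056676 (ENSMUSG00000031444, plus strand). Counts of 585 and 592 in controls, against 1818 and 2024 under MK-8931 corresponded to 31.5, 30.2, 93.3 and 110.1 CPM. The controls differed by 1.04-fold, and the lower drug library was far above both. Means were 30.9 ± 0.884 and 101.7 ± 11.9 CPM (SD, n = 2), and the fitted log2 fold change was 1.72 (SE 0.15), the largest of the 8 genes. It ranged from 1.58 to 1.83 over the 10 alternative settings.

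F7 and F10 are neighbours on the same strand, with 1498 bases between the end of F7 and the start of F10. Their FPKM ratio stayed in a narrow band, with F10 at 1.41 and 1.21 times F7 in the controls and 1.53 and 1.32 times with MK-8931. The nearest tested gene upstream, Mcf2l, a guanine nucleotide exchange factor gene, ends 5129 bases before F7. Its log2 fold change was 0.08 (SE 0.23, adjusted p = 0.951, edgeR). Downstream, Proz, which encodes protein Z, a vitamin K-dependent cofactor in the inhibition of factor Xa, starts 4238 bases after F10. Proz read 4.04 and 4.45 CPM in controls, against 7.28 and 3.86 CPM under the drug, so its groups overlapped (log2 fold change 0.39, SE 0.37, adjusted p = 0.801). Whether the changes of these neighbours differ from those of F7 and F10 was not tested.

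**Figure D2:**
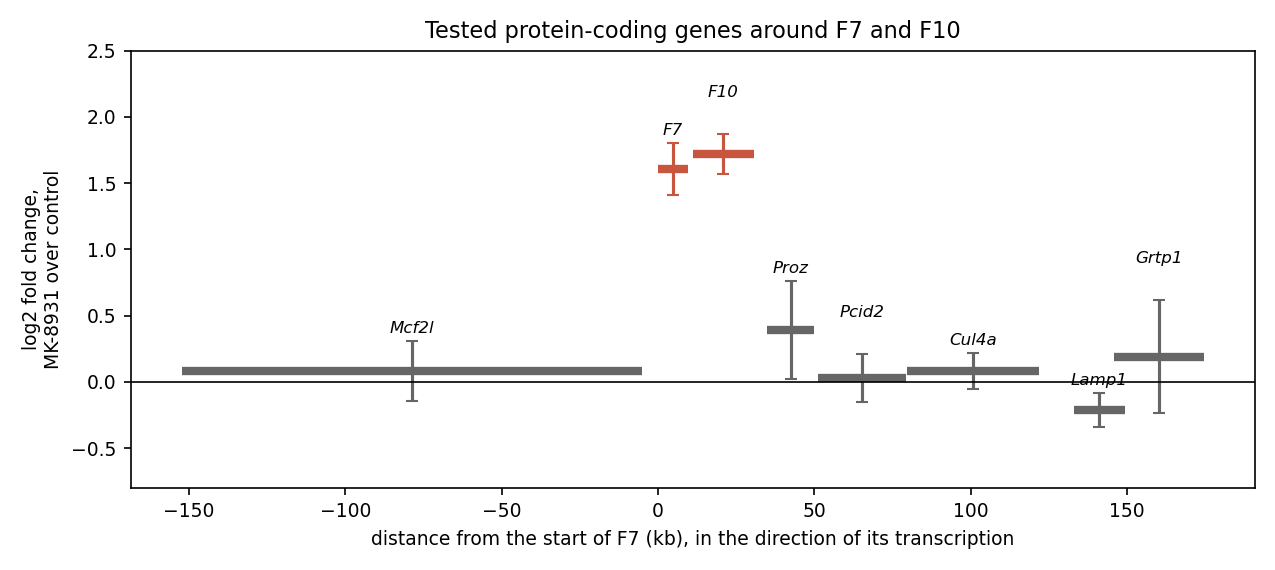
Log2 fold change (y axis, bars are standard errors) of the tested protein-coding genes around F7 and F10, drawn as horizontal bars over their extent in kb from the start of F7 (x axis). F7 (1.60) and F10 (1.72) are drawn in red, and Mcf2l (0.08) and Proz (0.39) flank them.

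The sequence just upstream of F7 and F10 is shown because both neighbours were higher in the drug libraries, and that of F3 because its product is the partner of factor VII. Each is the 250 bases before the start site in RefSeq (GRCm38.p6, plus strand, 5′ to 3′), at chr3:121723287-121723536 for F3, chr8:13025784-13026033 for F7 and chr8:13037058-13037307 for F10. Capitals mark matches, on either strand, to 6 motifs: TGANTCA (AP-1), GGGCGG (Sp1 and KLF GC box), GCGNGGGCG (EGR1, which can overlap the GC box), GAGGAA (ETS factors such as PU.1), TTGCNNAA (C/EBP) and AGGTCA (nuclear receptor half-site).
F3: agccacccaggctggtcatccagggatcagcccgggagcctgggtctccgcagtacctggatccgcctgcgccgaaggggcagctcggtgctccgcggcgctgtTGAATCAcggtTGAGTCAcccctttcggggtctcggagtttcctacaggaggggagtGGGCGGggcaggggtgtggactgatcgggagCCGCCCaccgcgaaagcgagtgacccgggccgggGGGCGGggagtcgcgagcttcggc
F7: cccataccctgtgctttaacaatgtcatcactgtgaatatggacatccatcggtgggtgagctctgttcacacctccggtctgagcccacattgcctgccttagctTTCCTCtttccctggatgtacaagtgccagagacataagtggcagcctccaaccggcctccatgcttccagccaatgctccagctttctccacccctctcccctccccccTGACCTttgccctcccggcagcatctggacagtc
F10: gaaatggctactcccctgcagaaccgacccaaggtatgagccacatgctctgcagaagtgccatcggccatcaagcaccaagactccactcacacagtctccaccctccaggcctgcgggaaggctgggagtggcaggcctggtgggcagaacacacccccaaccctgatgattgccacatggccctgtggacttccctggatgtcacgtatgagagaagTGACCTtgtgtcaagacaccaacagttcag

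The F3 stretch held 2 AP-1 matches, whose last bases lay 140 and 129 bases before the start, and 3 GC boxes, at 84, 53 and 19 bases. Its GC content was 70%. Among 32851 such stretches over all RefSeq start sites, 6.75% held an AP-1 match and 32.7% a GC box. The F7 and F10 stretches had 56.4% and 57.6% GC and no GC box. Each held 1 half-site, read on the opposite strand, at 29 bases before the start of F7 and 25 bases before that of F10. F7 also held 1 ETS match at 139 bases. Half-sites occurred in 14% of all stretches and ETS matches in 23.3%. The EGR1 and C/EBP motifs, in 4.7% and 9.56% of all stretches, had no match in these 3. The F5 stretch also held 1 half-site, as did that of Procr. RefSeq start sites were matched for 7 of the 8 genes, and a match is only a description of the letters.

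F5, the gene of the cofactor of factor Xa, was the least abundant per length (chromosome 1, 164151838 to 164220277, ENSMUSG00000026579, plus strand). It had 39 and 37 counts in controls, against 90 and 120 under MK-8931, or 2.10, 1.89, 4.62 and 6.52 CPM. Both drug libraries were above both controls on these few counts. The log2 fold change was 1.48 (SE 0.37), with 1.20 without MK-8931 2 and 1.70 without MK-8931 1. Per length, F10 exceeded F5 by 40.8 and 43.5 times in the controls and by 55.0 and 45.9 times with the drug.

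F13a1, which encodes the A subunit of the fibrin-crosslinking transglutaminase, was abundant in both groups (chromosome 13, 36867178 to 37050244, ENSMUSG00000039109, minus strand). It measured 1139 and 1120 CPM in controls, against 1399 and 1373 CPM under MK-8931. Replicates differed by only 1.02-fold in each group and the groups did not overlap. The log2 fold change was nonetheless small, 0.30 (SE 0.12), which is 1.23-fold between the means of 1129 ± 13.2 and 1386 ± 18.4 CPM (SD, n = 2). Overlapping predicted genes on the opposite strand had at most 38 counts in any library.

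**Figure D3:**
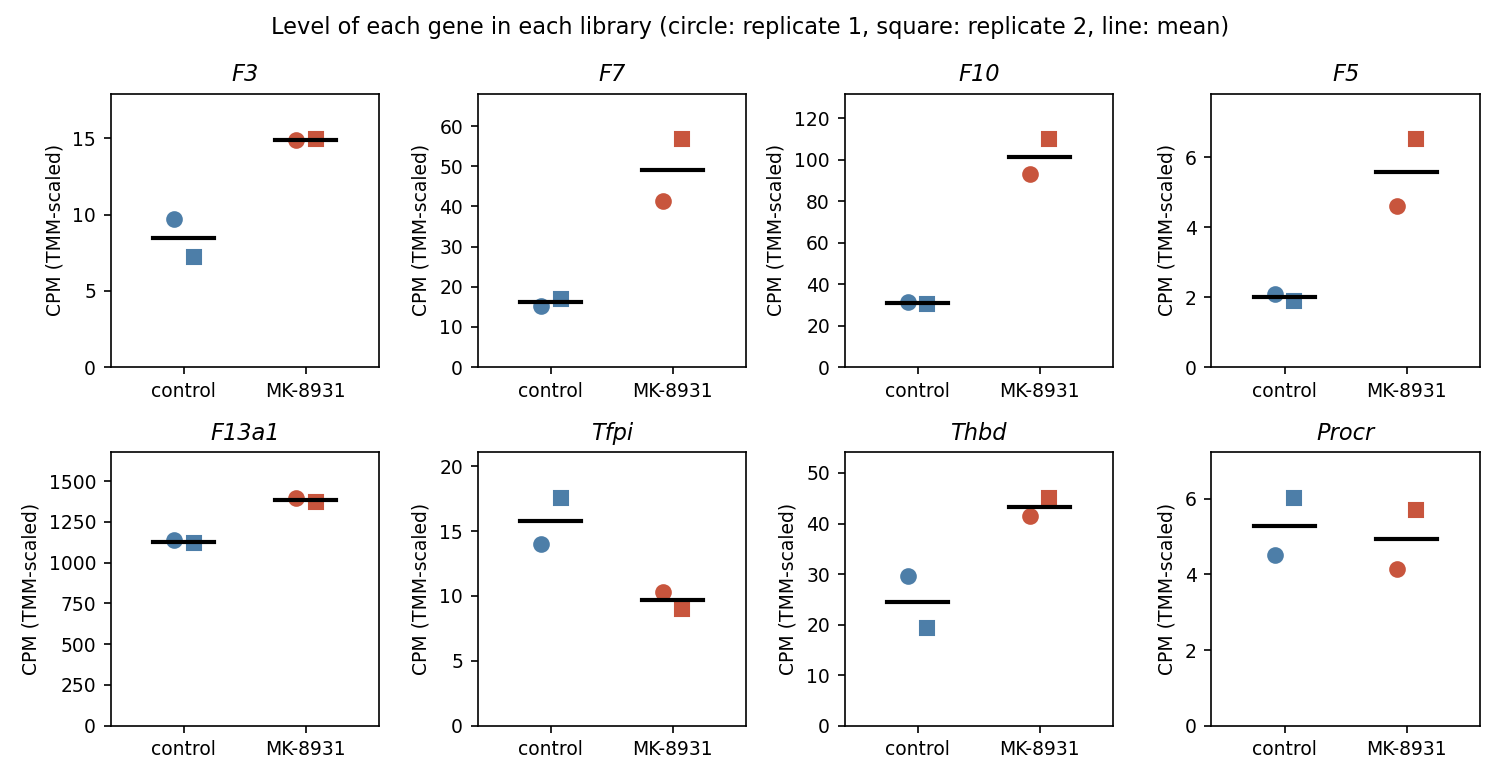
CPM of each gene (y axis, from 0) in the control (blue) and MK-8931 (red) libraries, with circles for replicate 1, squares for replicate 2 and lines for group means. Tfpi alone has both drug libraries below both controls, and Procr alone has groups that overlap.

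Of the 3 genes that restrain the cascade, Tfpi was lower, Thbd higher and Procr overlapping between the groups. Tfpi, the inhibitor of the tissue factor and factor VII complex, lies on chromosome 2 from 84432855 to 84476775 (ENSMUSG00000027082, minus strand). It measured 14.0 and 17.6 CPM in controls, against 10.3 and 9.03 CPM under MK-8931. Both drug libraries lay below both controls, with a log2 fold change of −0.71 (SE 0.22). Per length, F3 stood at 1.50 and 0.892 times Tfpi in the controls and at 3.12 and 3.58 times with the drug, so F3 exceeded Tfpi in 3 of the 4 libraries.

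Thbd, the thrombin-binding cofactor that starts the protein C pathway, is a gene with 1 exon on chromosome 2 (148404466 to 148408188, ENSMUSG00000074743, minus strand). Its levels were 29.7 and 19.4 CPM in controls, against 41.5 and 45.1 CPM under MK-8931. The drug libraries were close to each other and above both controls, which differed by 1.53-fold. The log2 fold change of 0.82 (SE 0.21) was 1.15 without control 1 and 0.54 without control 2. Thbd and F3 kept nearly the same proportion in all 4 libraries: F3 per length was 0.484 and 0.551 of Thbd in controls, against 0.528 and 0.488 under the drug.

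Procr, the receptor that presents protein C to thrombin and thrombomodulin, lies on chromosome 2 from 155751117 to 155755471 (ENSMUSG00000027611, plus strand). It read 4.52 and 6.03 CPM in controls, against 4.16 and 5.71 CPM under MK-8931. The groups overlapped, and in each the second library was the higher. The log2 fold change was −0.10 (SE 0.33), and its sign turned to 0.12 without control 2 and to 0.10 without MK-8931 1.

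**Figure D4:**
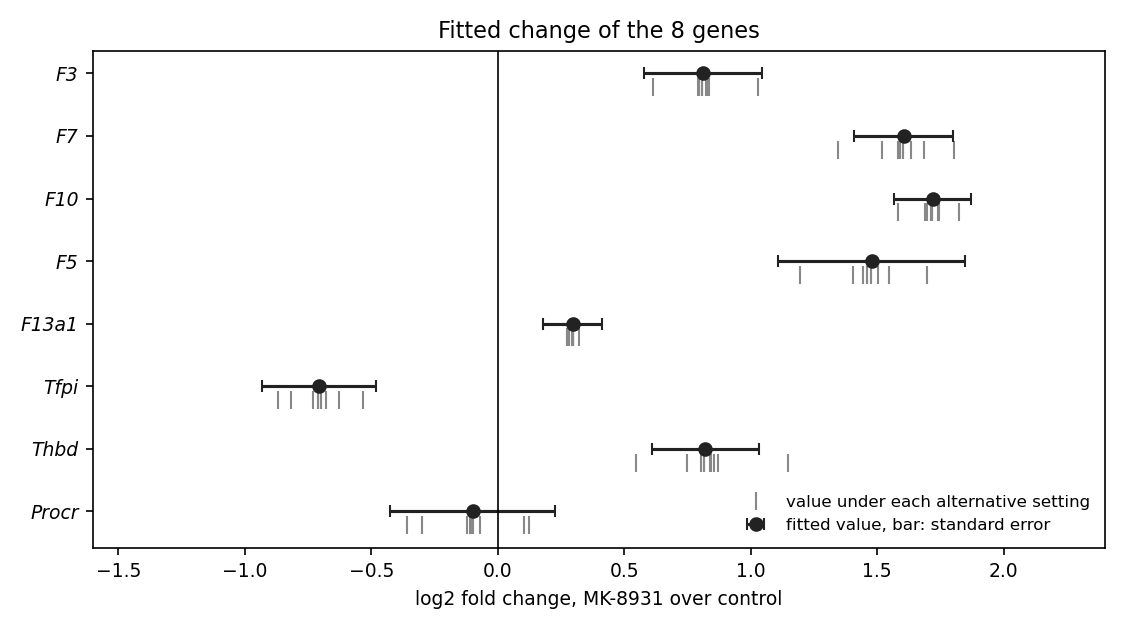
Fitted log2 fold change (MK-8931 over control, x axis) of the 8 genes with standard errors (bars), and the value under each of the 10 alternative settings (grey ticks). F10, F7 and F5 have the largest values, Tfpi is negative under every setting and the ticks of Procr fall on both sides of 0.

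The authors' deposited table gives log2 fold changes of 1.71 for F10, 1.60 for F7, 1.47 for F5, 0.81 for Thbd, 0.80 for F3, 0.29 for F13a1, −0.72 for Tfpi and −0.11 for Procr.

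The genes whose pattern over the 4 libraries lay nearest to the 3 largest log2 fold changes were found by the Euclidean distance of centred log2 CPM. Nearest to F10 among 9700 genes was Itgb7, which encodes an integrin subunit, at a distance of 0.104 (18.2 and 17.6 CPM in controls, 55.6 and 69.8 CPM with the drug). It was followed by Ripor2 (0.172) and the prostaglandin synthase gene Ptgs2 (0.230). The nearest to F7 were the chemokine Cxcl2 (0.126), Acap1 (0.168) and the lectin receptor Clec4e (0.201). For F5, the least abundant of the 3, they were the potassium channel gene Kcnj2 (0.0944), Clec4e (0.146) and the collagenase Mmp13 (0.189). With 4 libraries, likeness says little more than that levels were low in both controls and high in both drug libraries.

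The other genes of coagulation came from 7 lists, chosen with earlier results of these data known. In the fit over all genes, 3 of their 63 tested genes were past the threshold (1 higher, 2 lower), against 0.998% of all genes tested. Because of that choice, the calls and adjusted p-values of these lists are given as a description. Of 13 other procoagulant factors, most of them liver products, only Vwf and F9 were abundant enough to test. The fibrinogen genes Fga, Fgb and Fgg, and F11, F12 and F13b, had no count in any library. For a gene with 0 counts the limit is 0.153 to 0.163 CPM (3 counts, counting error only). Vwf, the von Willebrand factor gene, was at 16.2, 12.7, 15.9 and 15.5 CPM (log2 fold change 0.12, SE 0.21) and F9, the factor IX gene, had 36, 35, 39 and 24 counts (−0.17, SE 0.53). Neither passed (edgeR adjusted p 0.911 and 0.954), 0 had an unadjusted p under 0.05, and DESeq2 and limma-voom also called 0.

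Each of the 12 listed maturation genes had counts in every library. Pcsk6 did not pass the filter, with 4 and 3 counts in controls, against 25 and 9 under MK-8931. Factors VII and X need gamma-carboxylation by Ggcx, which depends on the vitamin K reductase Vkorc1. Of 11 tested genes of this list 0 passed in edgeR, 1 had an unadjusted p under 0.05, and DESeq2 and limma-voom called 0. The list median was −0.12. Of the 11, 5 had both drug libraries below both controls and 1 above, against 20% and 21.2% of all genes tested. Its lowest p belonged to Tpst1, a tyrosine sulfotransferase gene (17.1, 14.4, 20.5 and 22.3 CPM, log2 fold change 0.45, SE 0.19, adjusted p = 0.440). Furin, the protease that trims proproteins, had the highest FPKM of the list (104.8) and changed by −0.23 on the log2 scale (SE 0.12, adjusted p = 0.582).

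Among other anticoagulants and clearance receptors, 0 of 11 tested genes passed in edgeR, with 3 at an unadjusted p under 0.05, 1 called by DESeq2 and 0 by limma-voom (list median 0.39). Proc, the gene of protein C itself, had no count in any library. Tfpi2, a relative of Tfpi, had 3 and 0 counts in controls, against 25 and 10 under MK-8931 (adjusted p = 0.366). Anxa5, the phosphatidylserine-binding protein, was the most abundant of the list at 358 FPKM, and changed by −0.11 on the log2 scale (SE 0.14, adjusted p = 0.871).

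Receptors through which macrophages meet proteases and fibrin included 1 of 8 tested genes that rose. At an unadjusted p under 0.05 there were 3 higher and 0 lower, and DESeq2 and limma-voom each called 1 higher and 0 lower. Of the 8, 4 had both drug libraries above both controls and 0 below, against 21.2% and 20% of all genes tested. Itgam, the CD11b integrin subunit that binds fibrinogen and was also used for the sort, went from 200.2 ± 28.4 to 336 ± 12.4 CPM (SD, n = 2; log2 fold change 0.75, SE 0.14, edgeR adjusted p = 0.0485). The call was lost without MK-8931 1 (0.122), without MK-8931 2 (0.248) and when only library size was used for scaling (0.0599). Its adjusted p ran from 9.38e-05 to 0.248 over 10 alternatives. Its partner Itgb2 was the most abundant at 247 FPKM (log2 fold change 0.33, SE 0.12, adjusted p = 0.363). F2r, the thrombin receptor PAR1, was low, at 89 and 86 counts in controls and 106 and 95 with the drug.

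Of 9 tested genes of phosphatidylserine exposure, the membrane step on which factors VII, X and V assemble, 0 passed in edgeR. None had an unadjusted p under 0.05 (0 of 9), and DESeq2 and limma-voom called 0 (list median −0.04). Xkr8, a scramblase of dying cells, read 3.45, 3.88, 7.34 and 4.46 CPM (log2 fold change 0.69, SE 0.35, adjusted p = 0.558). Capn1, a calpain subunit, changed by 0.26 on the log2 scale (SE 0.14, adjusted p = 0.569), and Tmem30a, the flippase subunit and the most abundant at 33.3 FPKM, by −0.20 (SE 0.13, adjusted p = 0.690).

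In fibrinolysis, which dissolves the product of factor XIII, 1 of 9 tested genes fell and 0 rose. At an unadjusted p under 0.05 there were 1 higher and 2 lower, DESeq2 called 0 higher and 2 lower, and limma-voom 0 higher and 1 lower. Plau, the urokinase gene and the most abundant of the list at 457 FPKM, was at 1238 and 1367 CPM in controls, against 954 and 784 CPM under the drug (log2 fold change −0.58, SE 0.14, adjusted p = 0.122).

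Regulators known to act on F3 or Thbd were tested as well, and 1 of 13 fell while 0 rose. At an unadjusted p under 0.05 there were 3 higher and 4 lower, and DESeq2 and limma-voom each called 0 higher and 2 lower. Klf4, a transcription factor known to induce Thbd in endothelium, went from 326 and 367 CPM to 193 and 146 CPM (log2 fold change −1.03, SE 0.16, edgeR adjusted p = 0.0226). No relation of a regulator to the level of F3 or Thbd was tested. The call was lost without MK-8931 2 (0.124), with a range from 5.64e-10 to 0.124 over 10 alternatives. Its relative Klf2, also known to induce Thbd and named here after its values were seen, was at 311 and 348 CPM in controls, against 211 and 150 CPM under the drug (log2 fold change −0.87, edgeR adjusted p = 0.0595). Fos, a subunit of AP-1, whose motif the F3 stretch holds, was the most abundant of the list at 362 FPKM, with 1044, 878, 878 and 619 CPM (log2 fold change −0.36, SE 0.18, adjusted p = 0.541). Other AP-1 genes, named here after their values were seen, went both ways. Junb changed by 0.40 (SE 0.13, edgeR adjusted p = 0.256) and Jun by −0.43 (SE 0.14, adjusted p = 0.260). Of the 13 regulators, 4 had both drug libraries above both controls and 5 below, against 21.2% and 20% of all genes tested.

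The marker lists were also chosen with earlier results known, and 0.998% of all genes tested were called. All 11 macrophage markers passed the filter, as did 7 of 8 microglia, 8 of 8 monocyte and 7 of 7 fibroblast and pericyte markers. The macrophage list includes Itgam (CD11b) and Ptprc (CD45), on which the cells were sorted. It had the highest sum of the marker lists in each library, at 12519 and 15363 CPM in controls, against 11893 and 11794 CPM under MK-8931. Of these 11 markers, 5 had both drug libraries below both controls and 4 above, against 20% and 21.2% of all genes tested. Itgam alone was called, as higher. The complement genes C1qa, C1qb and C1qc were among those below, with C1qa at 2692 and 4177 CPM and then 2173 and 2359 CPM. None of them passed in edgeR (adjusted p 0.270, 0.356 and 0.158). The microglia list summed to 2225 and 2646 CPM in controls, against 1832 and 2058 CPM under the drug. Of its 7 tested genes, 5 had both drug libraries below both controls (20% of all genes tested did), among them Gpr34 (log2 fold change −1.13) and P2ry12 (−0.66). In edgeR 0 of the 7 passed, with 3 lower at an unadjusted p under 0.05, 2 lower by DESeq2 and 0 by limma-voom. The neutrophil list summed to 85.6 and 84.6 CPM in controls, against 537 and 892 CPM under the drug, and 7 of its 8 tested genes (12 listed) rose. Ly6g, of the same list, did not pass the filter, with 0 counts in 3 libraries and 14 in MK-8931 2. Cells bearing Gr1, which marks neutrophils, had been gated out in the sort. The monocyte list summed to 144 and 81.2 CPM and then 342 and 378 CPM, and 4 of its 8 tested genes rose. Markers of dendritic cells summed to 9.53 and 8.74 CPM in controls and to 14.4 and 18.3 CPM under the drug, and those of resident peritoneal-type macrophages to 10.8 and 19.6 CPM and then 20.2 and 35.5 CPM, with 0 of 6 and 0 of 5 tested genes past the threshold in edgeR (1 and 3 at an unadjusted p under 0.05, 0 and 1 by DESeq2, 0 and 0 by limma-voom). The sums of fibroblast and pericyte markers overlapped between the groups, at 450.4 and 192 CPM in controls, against 437 and 669.6 CPM under MK-8931. The part of these cells in the levels of F3, F5, F7, F10, F13a1 and Thbd was not tested, and in bulk RNA fewer cells of a type and less RNA per cell cannot be told apart.

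Platelets carry factors V and XIII A, and their list summed to 8.51 and 3.12 CPM in controls, against 36.5 and 42.1 CPM under MK-8931. Of its 3 tested genes (9 listed) 1 rose, the chemokine Ppbp, which made up most of the sum in the drug libraries. Gp1bb had no count in any library, and Gp9 had 4, 0, 9 and 5. Itga2b had 11, 27, 25 and 12 counts, and Gp1ba 11, 5, 24 and 15. Endothelium is known for Thbd, Procr and Tfpi. Its list was at 45.9 and 39.1 CPM in controls, against 53.3 and 48.4 CPM under the drug, with 0 of 5 tested genes past the threshold in edgeR (9 listed, 1 higher and 1 lower at an unadjusted p under 0.05, 1 called by DESeq2 and 0 by limma-voom). Kdr had 305 to 369 counts a library, Flt1 78 to 162, Cdh5 46 to 134 and Tie1 38 to 54, while Emcn, Cldn5, Tek and Erg had at most 8 in any library. Pecam1, which myeloid cells also carry, was at 10.8 and 4.65 CPM in controls, against 24.1 and 20.6 CPM under the drug. The part of platelets and endothelium in the levels of F5, F13a1, Thbd, Procr and Tfpi was not tested.

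**Figure D5:**
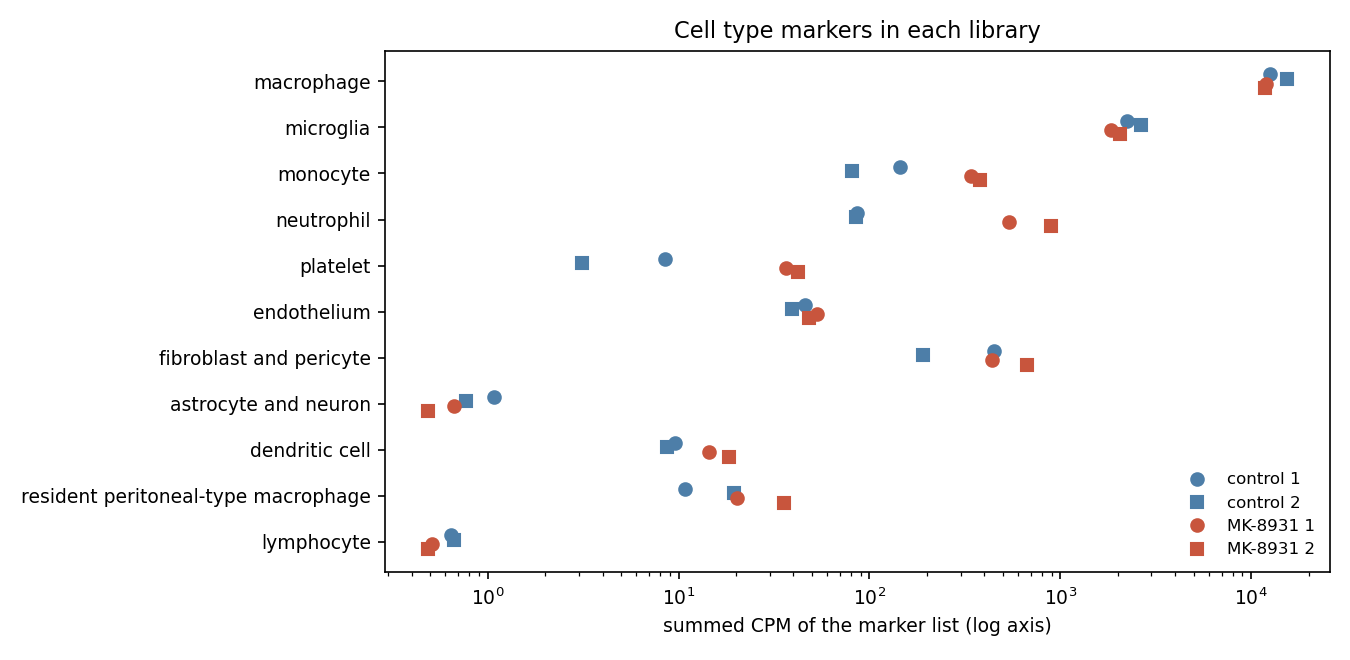
Summed CPM of each cell type's marker list (x axis, log) in the control (blue) and MK-8931 (red) libraries. Macrophage markers sum to at least 11794 CPM in each of the 4 libraries, and the neutrophil, monocyte and platelet lists are well above both controls in both drug libraries.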

How the data were processed

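Messenger RNA was measured in 4 libraries, 2 control and 2 MK-8931, grouped by their titles. The authors deposited whole-number counts for each gene, per the file headers, with totals from 18257930 to 20179875. FPKM values were deposited by the authors, and were checked to equal the count divided by gene length and by a constant per library. The authors' deposited table also holds their log2 fold changes, whose test is not named. The submitters' processing notes name CASAVA and mm9. Of 54409 gene identifiers shared with GENCODE M21, 53462 (98.3%) have the GRCm38 position, so coordinates are given as GRCm38. No aligner, counter or strand setting was given in the sources used here.

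The test was edgeR (version 4.0.16, R 4.3.3): filterByExpr (minimum count 10, 13932 genes kept), TMM, robust glmQLFit and glmQLFTest, two-sided, Benjamini-Hochberg adjustment over all tested genes, threshold 0.05. Standard errors (SE) were taken as the size of the log2 fold change over the root of its F statistic. The script was tested on simulated data. The members, the gene lists and the motifs were chosen with earlier results of these data known. Each list names its genes past the threshold, or else its 2 smallest p-values, and its highest mean FPKM. The share of all tested genes at an unadjusted p under 0.05 is not given, so list counts at that cutoff have no background beside them. Some genes that this rule names are not reported here. F2r, Proc and other genes given by counts alone were chosen after their values were seen. Nearest patterns used log2 CPM (prior count 2) among genes of at least 5 CPM. Motifs were searched in Python 3.11.15. An NF-kB motif was searched too, but its spelling was shortened after the stretches had been searched; the longer spelling matched none of those of F3, F7 and F10, the shorter one matched F3 and F10, and neither is used here. Alternatives were another scaling, no filter, a replicate block, DESeq2 1.42.0, limma-voom (limma 3.58.1) and each library left out. Within each group the 2 libraries differed beyond counting noise (chi-square over its degrees of freedom, 26.8 and 15.7).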

Additional observations from a re-analysis of the deposited data

How the results depend on the processing

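Among the 8 genes, the direction of 7 held under all 10 alternatives, with log2 fold changes from 1.58 to 1.83 for F10, 1.35 to 1.81 for F7, 1.20 to 1.70 for F5, 0.61 to 1.03 for F3, 0.54 to 1.15 for Thbd, 0.27 to 0.32 for F13a1 and −0.87 to −0.53 for Tfpi. Procr ran from −0.36 to 0.12 and was above 0 in 2. The groups of the other 7 were apart and each alternative reuses the same libraries, so their held direction is no independent support. F7 and F10 were called in each setting that kept all 4 libraries, in which 0.926% to 5.33% of all genes were called. Thbd was also called with the DESeq2 Wald test, under the replicate block and with no filter. F3 was called under the block and F5 with no filter. In these settings 2.29% to 5.33% of all genes were called. Such calls carry no weight, since the genes were picked with these results known. The order of levels was the same in TPM, and the 3 genes nearest to F10, F7 and F5 were the same with a prior count of 0.5.

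Counts over all genes depended on the setting. The 120 higher and 19 lower calls became 366 and 176 with no filter, 266 and 96 with DESeq2, and 468 and 275 under the replicate block. With limma-voom 30 were lower. Leaving out 1 library gave 85 to 520 higher and 10 to 243 lower, the largest counts without control 1 and the smallest without MK-8931 2. For the 7 other coagulation lists, the 1 higher and 2 lower calls became 4 and 4 with no filter, 2 and 4 with DESeq2, and 5 and 6 under the block. With library size alone 0 were higher, and leaving out 1 library gave 0 to 6 higher and 0 to 5 lower. The differences between libraries of the 2 groups correlated across genes with r = 0.197 when paired by number, but the labels do not say that a number marks a shared animal or day, so the block was not used as the main fit. A block with the numbers crossed was also fitted, after the data were seen, and is not reported because that correlation gave no reason to cross them. The cause of these shifts was not tested. With 2 libraries a group, depth limits the values of F5 and Procr most, at 37 to 120 counts a library.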
